A study of Mus musculus with 21 samples.

Results

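The mRNA of 6 chemokine receptors, Ccr1, Ccr2, Ccr7, Ccrl2, Cx3cr1 and Cxcr4, was followed through 3 populations of kidney macrophages. The members were taken by gene symbol from 34236 gene names, the symbols having been chosen with earlier results of these data known, and all 6 passed the filter on low counts in every comparison. RNA was sequenced in 21 libraries of macrophages sorted from kidneys of male C57BL/6J mice, labelled as 24 weeks of age with a sort of 5 hours. Renal artery stenosis (RAS) was made with a cuff around the right renal artery, and Sham mice were the controls. All libraries came from cells positive for F4/80 and CD64, after cells carrying markers of neutrophils, T cells, B cells or NK cells had been gated out. CD11chi macrophages, high for CD11b and for CD11c, gave 3 Sham and 4 RAS libraries. CD11clo macrophages, high for CD11b and low for CD11c, gave 3 Sham and 4 RAS libraries. KRM, the kidney-resident macrophages of intermediate CD11b and CD11c, gave 4 Sham and 3 RAS libraries. The populations differ in the gate itself, and the labels do not say whether a library is 1 mouse or a pool.

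Chemokine receptors span the cell membrane and signal through G proteins when a chemokine binds, so that a cell moves along a gradient of the ligand. Ccr2 lets monocytes leave the bone marrow and enter inflamed tissue, Cx3cr1 binds fractalkine and marks many resident macrophages, and Ccr7 guides mature dendritic cells to lymph nodes. Ccrl2 is an atypical member that binds chemerin on the cell surface and is not known to signal through G proteins.

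On GRCm38 with the annotation GENCODE vM21, 4 of the members lie on chromosome 9: Ccr1 at chr9:123962124-123968692 on the minus strand, Ccr2 at chr9:124101950-124113557 on the plus strand, Ccrl2 at chr9:111054486-111057519 on the minus strand and Cx3cr1 at chr9:119901616-120069879 on the minus strand. Ccr7 lies at chr11:99144196-99155077 and Cxcr4 at chr1:128588199-128592293, both on the minus strand. An exon of Cx3cr1 overlaps the antisense gene Gm33858, whose reads cannot be separated from it without strand, so its values carry that uncertainty. Ccr2 had estimated counts that were not whole numbers in every library, as reads shared with other genes give. Promoters of 5 members were in the RefSeq table for GRCm38.p6, and 3 of these are shown, from 150 to 11 bases before the annotated start, because they lie outside the gene's own exons and differ in base composition and in the motif letters they hold. Capitals mark a match to the NF-kB consensus or, in Ccr1 also, to the PU.1 core GAGGAA, and in Cxcr4 the overlapping matches of both strands to TATAAA.
Ccr1, chr9:123968703-123968842, minus strand: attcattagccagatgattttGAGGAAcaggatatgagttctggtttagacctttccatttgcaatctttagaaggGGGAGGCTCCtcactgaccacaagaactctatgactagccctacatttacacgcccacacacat
Ccrl2, chr9:111057529-111057668, minus strand: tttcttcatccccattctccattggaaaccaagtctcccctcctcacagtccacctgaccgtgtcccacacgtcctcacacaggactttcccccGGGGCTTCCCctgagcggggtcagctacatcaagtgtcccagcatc
Cxcr4, chr1:128592310-128592449, minus strand: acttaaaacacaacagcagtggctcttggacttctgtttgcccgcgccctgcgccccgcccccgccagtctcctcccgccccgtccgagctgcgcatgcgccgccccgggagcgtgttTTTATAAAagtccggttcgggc
The GC content of these windows was 43.6% in Ccr1, 57.9% in Ccrl2 and 65.0% in Cxcr4. Over all 32851 promoters, searched on both strands in the 250 bases before the start, the NF-kB consensus was found in 7.25%, GAGGAA in 23.3% and TATAAA in 12.4%. The matches are descriptions of letters and no binding was measured.

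Library totals ran from 6891137 to 18592376 counts, and 14606 to 17702 genes were counted per library. Levels are in CPM, counts scaled to a common library size with TMM factors. The 10 markers of kidney macrophages were all above 0 in every library, with a summed level of 18305 to 25442 CPM in KRM Sham and 2878 to 16669 in all others. Classical monocyte markers summed to 2561 to 17321 CPM in CD11clo, 492 to 2286 in CD11chi and 126 to 248 in KRM. Non-classical monocyte markers summed to 1560 to 4174, 534 to 2931 and 373 to 959 CPM in the same order. Neutrophil markers, whose cells the gate removes, summed to 1252 to 4835 CPM in CD11clo and at most 416 elsewhere. Some libraries stood apart from their labels' groups. CD11chi Sham 3 was nearest to KRM RAS 2, with tubular markers at 13224 CPM. CD11clo Sham 3 held 4887 CPM of tubular markers against 93.6 and 107 in the other CD11clo Sham libraries. CD11chi RAS 1 was nearest to CD11chi Sham 1, and KRM RAS 1 to CD11chi RAS 1, with T and NK cell markers at 427 CPM against 54.0 and 59.4 in the other KRM RAS libraries. KRM Sham 3 also held the most tubular markers of its group, 1820 CPM against 254 to 309, so replicate 3 was highest for them in all 3 Sham groups. CD11clo RAS 1 and 2 were nearest to CD11clo Sham 1. Where leaving out any of the first 4 libraries named here changed a call of a receptor, the value without it is given.

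Compared per kilobase of annotated exon, Cx3cr1 was the most abundant member in KRM Sham, at 239 CPM per kb, where Ccr2 was at 92.9, Ccrl2 at 54.9, Cxcr4 at 13.8, Ccr1 at 5.56 and Ccr7 at 1.90. In CD11clo Sham the order began with Ccr2 at 195 CPM per kb and Ccrl2 at 187, and Ccr7 came last at 0.495. In CD11chi RAS, Ccrl2 stood at 233 CPM per kb, Ccr7 at 135, Ccr2 at 126 and Cx3cr1 at 47.3. Ccr7 thus ranged from the last to the second place of 6 between groups. Between the highest and the lowest group mean, Ccr1 differed 24.4-fold, Ccrl2 6.28-fold, Cx3cr1 5.06-fold, Cxcr4 3.59-fold and Ccr2 2.23-fold. The value for Cx3cr1 was 11.9-fold without CD11chi RAS 1, above that of Ccrl2. No fold is given for Ccr7, since CD11clo Sham, its lowest group, holds few counts and nearly all of them in CD11clo Sham 3.

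**Figure D1:**
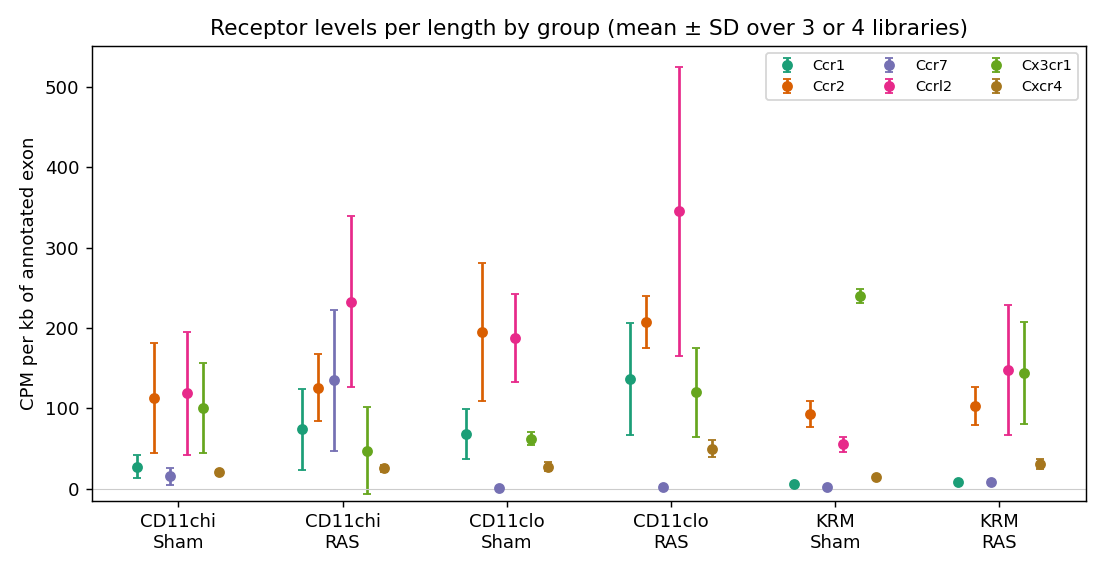
Mean level of each receptor in CPM per kb of annotated exon (linear axis) in the 6 groups, with bars of 1 SD over 3 or 4 libraries. Cx3cr1 leads in KRM Sham at 239 CPM per kb, and Ccr7 spans 0.495 in CD11clo Sham to 135 in CD11chi RAS.

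A gene was called where its p from the quasi-likelihood test of edgeR, adjusted by Benjamini-Hochberg over all genes tested, was under 0.05. In Sham kidneys, KRM had less Ccr1, Ccr2, Ccrl2 and Cxcr4 and more Cx3cr1 than CD11clo. These were 5 of the 6 members called, where 41.8% of all genes tested were called, 19.5% as higher and 22.3% as lower in KRM. Against CD11chi, KRM had less Ccr1 and less Ccr7, 2 members called where 5.12% of all genes were, 1% as higher and 4.12% as lower. With the replicate number of the libraries as a block neither was called (adjusted p = 0.133 for Ccr1 and 0.0505 for Ccr7). Between CD11chi and CD11clo in Sham, edgeR called 0 members. The 1 member at an unadjusted p under 0.05, and the 1 called by DESeq2, was Ccr7, which is too low in CD11clo Sham for anything to be read from it. Here edgeR called 1.52% of all genes, 0.917% higher and 0.603% lower in CD11chi. In RAS kidneys, KRM against CD11chi gave 2 members called, both lower, where 9.23% of all genes were called, 4.17% higher and 5.07% lower. KRM against CD11clo gave 2, both lower, where 9.17% of all genes were called, 3.28% higher and 5.89% lower. CD11chi against CD11clo gave 2, Ccr7 higher and Cxcr4 lower, where 8.27% of all genes were called, 5.15% higher and 3.12% lower. The comparisons share groups of libraries and are not independent of each other. The median log2 fold change over the 6 members was -0.85 for KRM against CD11chi in Sham (all genes tested -0.07), -1.01 for KRM against CD11clo (all genes -0.04) and -0.46 for CD11chi against CD11clo (all genes 0.13). In RAS these medians were -0.50 (all genes 0.03), -0.85 (all genes 0.06) and -0.78 (all genes 0.01).

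**Figure D2:**
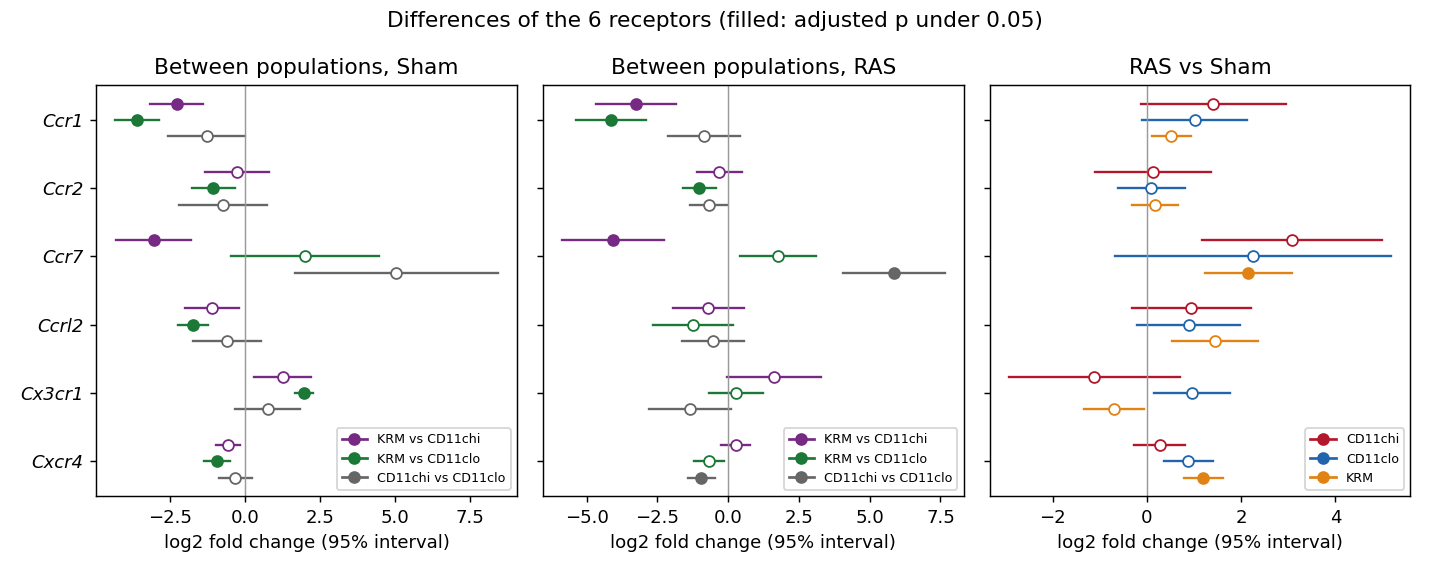
Log2 fold changes with 95% intervals for the 6 receptors between populations in Sham kidneys (left), between populations in RAS kidneys (middle) and for RAS against Sham in each population (right), with filled points where the adjusted p was under 0.05. Ccr1 lies below 0 in KRM against both other populations in Sham and RAS, and Ccr7 lies at 5.84 for CD11chi against CD11clo in RAS, while its Sham points against CD11clo rest on few counts.

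The members called depended on single libraries. For KRM against CD11chi in Sham the count of members called ran from 0 to 5 with 1 library left out (155 to 1717 of all genes). It was 5, among 13.6% of all genes called, without CD11chi Sham 3, where Ccr1 (log2 fold change -2.65), Ccr7 (-3.17), Ccrl2 (-1.38), Cx3cr1 (0.88) and Cxcr4 (-0.68) passed. For KRM against CD11clo in Sham it ran from 4 to 6 (4007 to 5940 of all genes), and for KRM against CD11chi in RAS from 0 to 3 (14 to 2788 of all genes). Libraries with the same replicate number in Sham deviated together, and with that number as a block the count for KRM against CD11chi in Sham was 0 (0.718% of all genes). With the block the count was 2 for CD11chi against CD11clo in Sham (4.92% of all genes), Ccr1 and Ccr7, and 5 for KRM against CD11clo (34.3%). The 6 called at most for KRM against CD11clo also take in Ccr7, and nothing is read from Ccr7 in either comparison, for its few counts in CD11clo Sham.

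Ccr2, the receptor of Ccl2 and Ccl7, was measured at 891, 1149 and 246 CPM in the 3 CD11chi Sham libraries and at 1028, 428, 982 and 965 in the 4 CD11chi RAS libraries. It stood at 1898, 1321 and 736 CPM in CD11clo Sham and at 1694, 1269, 1200.1 and 1438 in CD11clo RAS. In KRM Sham it was at 487, 637, 627 and 761 CPM, and in KRM RAS at 845, 532 and 709. The receptor was thus abundant in all 21 libraries, KRM included, and every neighbour in the order of its 6 group means overlapped the next. The means ran from 1400.2 ± 219.9 CPM (SD, n = 4) in CD11clo RAS to 628 ± 112 (SD, n = 4) in KRM Sham.

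Ccr2 was lower in KRM than in CD11clo in Sham, with a log2 fold change of -1.07 (SE 0.31, adjusted p = 0.0261), although the libraries of the groups overlapped. The classical monocyte markers, at 6997 to 17321 CPM in CD11clo Sham against 126 to 144 in KRM Sham, moved with it, and their part in the difference was not tested. In RAS the difference was -1.02 (SE 0.25, adjusted p = 0.0463), and the groups did not overlap, which 30% of all genes shared. The Sham call was lost without CD11clo Sham 1 (-0.67, adjusted p = 0.107), CD11clo Sham 2 or KRM Sham 1, 2 or 3 (adjusted p of 0.0538 to 0.0685), in 1 fit over all groups (0.0791) and with limma (0.144). Without CD11clo Sham 3 the Sham value was -1.37 (adjusted p = 0.000758). The RAS call was lost without CD11clo RAS 1 (adjusted p = 0.0812), 2 or 4 (0.108 each), KRM RAS 2 (0.169) or KRM RAS 3 (0.164), and stood at -1.21 (adjusted p = 0.0235) without KRM RAS 1. It was also lost with total library size (0.0766), no filter (0.0654), 1 fit over all groups (0.105), the block (0.0786) and limma (0.0935).

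Between KRM and CD11chi no difference in Ccr2 was called. In Sham the log2 fold change was -0.28, with a 95% interval of -1.35 to 0.80, and in RAS -0.31, with an interval of -1.09 to 0.47. Without CD11chi Sham 3 the Sham value was -0.69 (adjusted p = 0.0544). RAS against Sham gave 0.13 (interval -1.10 to 1.36) in CD11chi, 0.10 (-0.61 to 0.81) in CD11clo and 0.17 (-0.32 to 0.67) in KRM. CD11chi against CD11clo gave -0.74 in Sham (interval -2.21 to 0.73) and -0.69 in RAS (interval -1.35 to -0.04, adjusted p = 0.171). The interval for RAS against Sham was widest in CD11chi.

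Ccr1 binds Ccl3, Ccl5, Ccl6 and Ccl9 and takes part in the movement of monocytes and neutrophils. Its levels were 104, 95.8 and 29.9 CPM in CD11chi Sham and 84.0, 84.7, 320.9 and 346 in CD11chi RAS. They were 280.0, 192 and 106 CPM in CD11clo Sham and 156, 401, 347 and 636 in CD11clo RAS. KRM Sham libraries held 15.6, 14.9, 17.2 and 15.3 CPM and KRM RAS libraries 24.6, 17.7 and 24.3. All 7 KRM libraries lay below all 14 others, and the KRM Sham libraries within 14.9 to 17.2 spread less than any other group for this gene.

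In Sham, Ccr1 was lower in KRM than in CD11clo by a log2 fold change of -3.61 (SE 0.32, adjusted p = 6.79e-05), a call that held in all 14 alternatives tried. Against CD11chi it was -2.28 (SE 0.38, adjusted p = 0.0197), and the groups did not overlap, as for 24.6% of all genes. Lower in KRM than in CD11chi were also 7 of 10 classical and 7 of 10 non-classical monocyte markers, 3 of 7 neutrophil, 5 of 10 dendritic cell and 6 of 10 mature dendritic cell markers. In these lists 0 were higher, and their part was not tested. Neutrophil markers, at 1252 to 2937 CPM in CD11clo Sham against 95.04 to 119 in KRM Sham (7 of 7 lower in KRM), and classical monocyte markers (10 of 10 lower in KRM than in CD11clo) moved with Ccr1, and their part was not tested. The call against CD11chi was lost without CD11chi Sham 1 (adjusted p = 0.0851) or any of KRM Sham 1 to 4 (0.0588 to 0.0810). With the replicate block it was -2.10 (adjusted p = 0.133) and with limma -2.02 (adjusted p = 0.0654), and without CD11chi Sham 3 it was -2.65 (adjusted p = 3.22e-05). Between CD11chi and CD11clo in Sham the value was -1.28 (95% interval -2.56 to 0.0068, adjusted p = 0.284), and with the block -1.33 (adjusted p = 0.0433).

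In RAS, Ccr1 was again lower in KRM, where neutrophil markers stood at 140 to 223 CPM against 2539 to 4835 in CD11clo RAS. The log2 fold change was -4.14 (SE 0.53, adjusted p = 0.0135) against CD11clo and -3.26 (SE 0.62, adjusted p = 0.0284) against CD11chi, where the groups did not overlap, as for 26.2% of all genes. Lower in KRM than in CD11chi were also 2 of 10 classical and 2 of 10 non-classical monocyte markers, with 0 of 7 neutrophil markers called, and their part was not tested. The call against CD11clo was lost without CD11clo RAS 2 (adjusted p = 0.0530), KRM RAS 2 (0.0890) or KRM RAS 3 (0.0800). The call against CD11chi was lost without CD11chi RAS 3 (0.0900), CD11chi RAS 4 (0.0863), KRM RAS 2 (0.139) or KRM RAS 3 (0.134), and with the block (0.0685). Without KRM RAS 1 the values were -4.26 (adjusted p = 0.0122) against CD11clo and -3.38 (0.0213) against CD11chi, and without CD11chi RAS 1 the latter was -3.49 (0.00997). CD11chi and CD11clo in RAS gave -0.86 (95% interval -2.12 to 0.40).

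Cx3cr1, the receptor of Cx3cl1, was highest in KRM Sham. KRM Sham libraries held 1093, 1126, 1039 and 1054 CPM, and KRM RAS libraries 973, 433 and 538. CD11clo libraries held 238, 312 and 292 CPM in Sham and 492, 305, 896 and 467 in RAS. CD11chi libraries held 509, 671 and 177 CPM in Sham and 579.5, 96.4, 83.4 and 92.4 in RAS. The 4 KRM Sham libraries were above every other library, and CD11chi RAS 1 stood with the CD11chi Sham libraries, above the other 3 CD11chi RAS libraries. The mean of CD11chi RAS was 213 ± 244 CPM (SD, n = 4), and 90.7 ± 6.67 (n = 3) without CD11chi RAS 1.

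In Sham, Cx3cr1 was higher in KRM than in CD11clo by 1.97 on the log2 scale (SE 0.13, adjusted p = 1.69e-05), called in all 14 alternatives, with groups that did not overlap, as for 49.3% of all genes. Against CD11chi it was 1.25 (SE 0.41, 95% interval 0.30 to 2.21, adjusted p = 0.123), with groups that did not overlap, as for 24.6% of all genes. That comparison passed without CD11chi Sham 3 (0.88, adjusted p = 0.00855), where the CD11chi Sham mean was 590 ± 115 CPM (n = 2). CD11chi against CD11clo gave 0.75 (interval -0.34 to 1.83, adjusted p = 0.438), and 1.09 (adjusted p = 0.0403, with 5.7% of all genes called) without CD11chi Sham 3. The markers of kidney macrophages, with a sum of 18305 to 25442 CPM in KRM Sham, 4816 to 11543 in CD11chi Sham and 5100 to 6311 in CD11clo Sham, ran the same way, and 10 of 10 were higher in KRM than in CD11clo and 3 of 10 higher than in CD11chi. Their part in the receptor's values was not tested, and a bulk library cannot separate fewer cells of a type from less RNA per cell.

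In RAS, no population difference in Cx3cr1 was called with all libraries. KRM against CD11clo gave 0.26 (95% interval -0.69 to 1.22), and -0.19 (adjusted p = 0.756) without KRM RAS 1. KRM against CD11chi gave 1.62 (interval -0.03 to 3.26, adjusted p = 0.175), and without CD11chi RAS 1 it was 2.83 (adjusted p = 0.00632, with 17.6% of all genes called). CD11chi against CD11clo gave -1.34 (interval -2.79 to 0.10, adjusted p = 0.224), and without CD11chi RAS 1 it was -2.52 (adjusted p = 0.00401, with 17.3% of all genes called). Both differences passed without CD11chi RAS 1 and neither with it. In the same fits 8 of 10 kidney macrophage markers were higher in KRM than in CD11chi, and 4 of 10 were lower in CD11chi than in CD11clo. Dendritic cell markers were lower in KRM than in CD11chi (6 of 10) and higher in CD11chi than in CD11clo (9 of 10, and 8 of 10 mature ones). Of classical monocyte markers 8 of 10, and of neutrophil markers 8 of 9, were lower in CD11chi than in CD11clo. The part of all these was not tested.

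**Figure D3:**
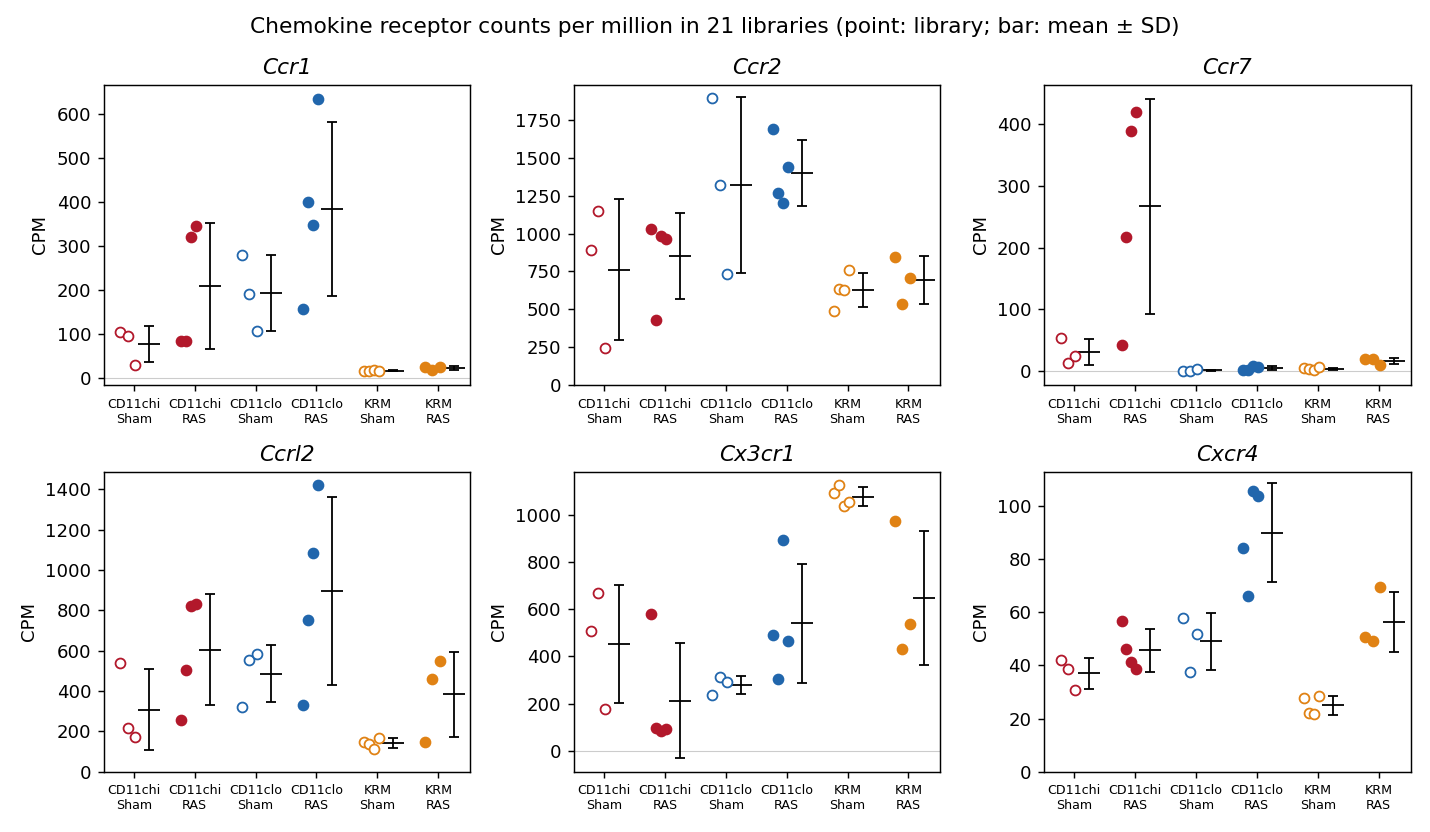
Level of each of the 6 receptors in CPM (linear axis) in every library, in 1 panel per receptor, open for Sham and filled for RAS, with the mean and SD of each group. All KRM libraries lie lowest for Ccr1, the KRM Sham libraries highest for Cx3cr1, and CD11chi RAS 1 lies above the other CD11chi RAS libraries for Cx3cr1 and below them for Ccr7.

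Ccr7, the receptor of Ccl19 and Ccl21, was highest in CD11chi. Its levels were 54.0, 13.3 and 25.2 CPM in CD11chi Sham and 42.6, 218, 389 and 419 in CD11chi RAS. In CD11clo Sham the libraries held 2, 0 and 24 counts, which is 0.205, 0 and 2.73 CPM, and in CD11clo RAS 21, 17, 75 and 53 counts, or 2.21, 2.01, 8.38 and 6.42 CPM. KRM Sham libraries held 4.26, 2.67, 2.31 and 5.77 CPM and KRM RAS libraries 19.4, 19.7 and 9.85. All CD11chi libraries lay above all CD11clo libraries, with 3 of 4 CD11chi RAS libraries above 200 CPM. In Sham, Ccr7 passed the filter in comparisons with CD11clo through the other group alone, so those comparisons are given without a fold and nothing is read from them.

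In RAS, Ccr7 was higher in CD11chi than in CD11clo by 5.84 on the log2 scale (SE 0.81, 95% interval 4.04 to 7.65, adjusted p = 0.00519), called in all 15 alternatives. Without CD11chi RAS 1 it was 6.21 (adjusted p = 0.000817). In Sham the same difference was not called (adjusted p = 0.144), whereas it passed with the replicate block (adjusted p = 0.0284), a call that rests on these few counts in CD11clo Sham.

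KRM had less Ccr7 than CD11chi in both conditions, with a log2 fold change of -3.06 (SE 0.53, adjusted p = 0.0225) in Sham and -4.08 (SE 0.78, adjusted p = 0.0298) in RAS. The Sham call was lost without CD11chi Sham 1 (0.0803) or any of KRM Sham 1 to 4 (0.0551 to 0.0907), and with the block it was -3.17 (adjusted p = 0.0505) and the call was lost with limma too (adjusted p = 0.0574). Without CD11chi Sham 3 it was -3.17 (adjusted p = 0.00881). The RAS call was lost without CD11chi RAS 2 (0.0589), 3 (0.0921) or 4 (0.0885), KRM RAS 2 (0.129) or KRM RAS 3 (0.135), and with the block (0.108). It was -4.39 (adjusted p = 0.00307) without CD11chi RAS 1 and -4.27 (adjusted p = 0.022) without KRM RAS 1. Against CD11clo, KRM gave 1.76 in RAS (interval 0.43 to 3.10, adjusted p = 0.0849). The Sham difference was not called with all libraries (adjusted p = 0.176) and passed without CD11clo Sham 3 (adjusted p = 0.00274, with 47.1% of all genes called), over 2 counts in CD11clo.

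Markers of dendritic cells were higher where Ccr7 was in CD11chi against CD11clo, but not in every library. The summed level of 10 dendritic cell markers was 448 to 1929 CPM in CD11chi Sham and 1230 to 5274 in CD11chi RAS, against 113 to 495 in CD11clo and 211 to 341 in KRM. The 10 markers of mature dendritic cells summed to 693 to 1014 CPM in CD11chi Sham and 1000.3 to 5777 in CD11chi RAS, but also to 3979 in CD11clo RAS 3, which held 8.38 CPM of Ccr7. In KRM RAS the mature markers did not follow Ccr7. They stood at 833 CPM beside 19.4 CPM of Ccr7 in KRM RAS 1, 2707 beside 19.7 in KRM RAS 2 and 3176 beside 9.85 in KRM RAS 3. In RAS, 9 of 10 dendritic cell markers and 7 of 10 mature dendritic cell markers were higher in CD11chi than in CD11clo, beside 8 of 9 T and NK cell markers. None of the 10 dendritic cell markers was at 0 in any CD11chi or KRM library, while 1 of the 10 mature markers was at 0 in KRM Sham 1. The part of these markers in the Ccr7 values was not tested.

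**Figure D4:**
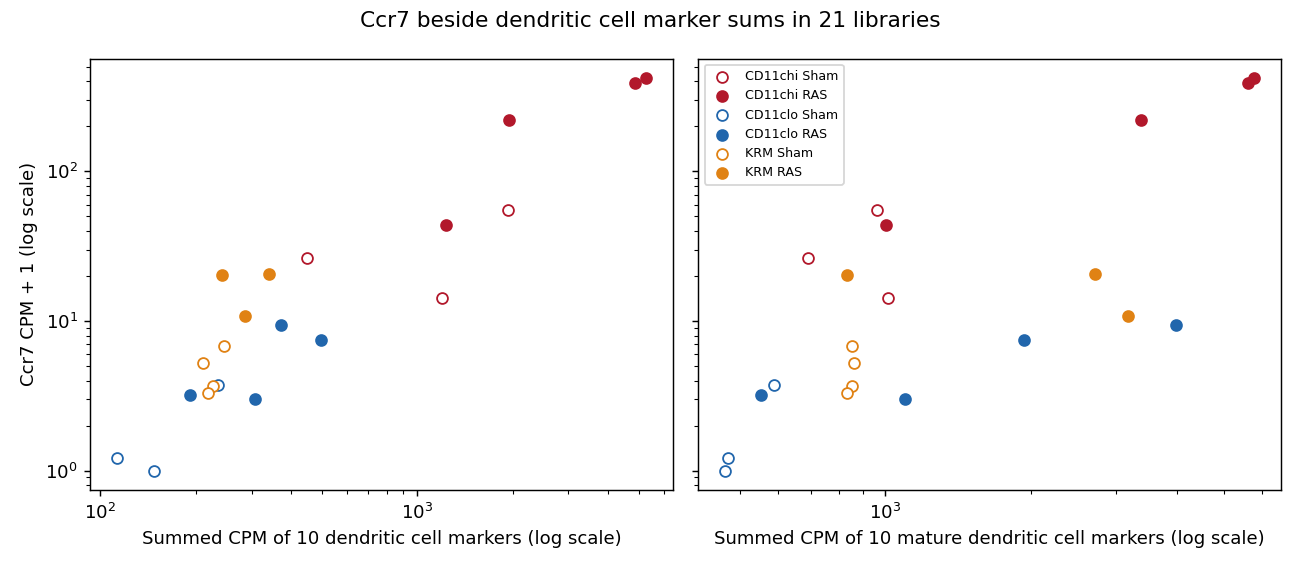
Ccr7 level (CPM + 1, log axis) against the summed CPM (log axis) of 10 dendritic cell markers (left) and 10 mature dendritic cell markers (right), with 1 point per library. CD11chi RAS 3 and 4 stand at the top right of both panels, at 389 and 419 CPM of Ccr7.

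Cxcr4, the receptor of Cxcl12 that holds many leukocytes in the bone marrow, was lowest in KRM Sham. It was at 41.9, 38.6 and 30.6 CPM in CD11chi Sham and at 56.8, 46.1, 41.1 and 38.6 in CD11chi RAS. It was at 57.9, 37.4 and 51.6 CPM in CD11clo Sham and at 83.9, 66.1, 106 and 104 in CD11clo RAS. KRM Sham libraries held 27.8, 22.1, 21.9 and 28.3 CPM and KRM RAS libraries 50.7, 49.0 and 69.3. The 4 KRM Sham libraries were the lowest of all 21, and the 4 CD11clo RAS libraries lay above all others except KRM RAS 3.

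In Sham, Cxcr4 was lower in KRM than in CD11clo by a log2 fold change of -0.95 (SE 0.19, adjusted p = 0.00466), called in all 14 alternatives. The neutrophil and classical monocyte markers, given beside Ccr1, were lower in KRM here too, and their part was not tested. Against CD11chi it was -0.58 (95% interval -0.99 to -0.17, adjusted p = 0.106), and without CD11chi Sham 3 it was -0.68 (adjusted p = 0.0278). In RAS, CD11chi held less than CD11clo, at -0.94 (SE 0.21, adjusted p = 0.0276), with groups that did not overlap, as for 16.7% of all genes. This call was lost without CD11chi RAS 3 (adjusted p = 0.101), CD11chi RAS 4 (0.0941), CD11clo RAS 3 (0.0509) or CD11clo RAS 4 (0.0960), and stood at -1.04 (0.0147) without CD11chi RAS 1. It was also lost with total library size (0.0514). In this comparison 6 of 9 neutrophil and 6 of 10 classical monocyte markers were lower in CD11chi and 9 of 10 dendritic cell markers higher, and their part was not tested. KRM in RAS gave -0.68 against CD11clo (adjusted p = 0.0849) and 0.27 against CD11chi (interval -0.24 to 0.78). CD11chi against CD11clo in Sham gave -0.32 (interval -0.88 to 0.23).

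Ccrl2 was measured at 536, 216 and 171 CPM in CD11chi Sham and at 259, 505, 823 and 833 in CD11chi RAS. It was at 322, 554 and 582 CPM in CD11clo Sham and at 329, 753, 1084 and 1421 in CD11clo RAS. KRM Sham libraries held 149.9, 138, 114 and 170 CPM and KRM RAS libraries 147, 459 and 546. The KRM Sham libraries and KRM RAS 1 lay below all 16 others. In Sham, Ccrl2 was lower in KRM than in CD11clo by a log2 fold change of -1.74 (SE 0.21, adjusted p = 0.000392), called in all 14 alternatives, while the same neutrophil and classical monocyte markers were lower in KRM, a part that was not tested. Against CD11chi it was -1.11 (95% interval -2.01 to -0.22, adjusted p = 0.139), and -1.38 (adjusted p = 0.0257) without CD11chi Sham 3. CD11chi against CD11clo gave -0.60 (interval -1.74 to 0.54). In RAS no difference was called: KRM gave -1.25 against CD11clo (interval -2.66 to 0.16) and -0.70 against CD11chi (interval -1.95 to 0.55), and CD11chi gave -0.54 against CD11clo (interval -1.63 to 0.56).

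The effect of RAS was then compared within each population. In KRM, Ccr7 and Cxcr4 were higher in RAS, 2 of the 6 members called where 9.7% of all genes were, 7.77% higher and 1.94% lower. Higher genes were 80.0% of those called, and 56.0% without KRM RAS 1. With limma on the log2 table they were 42.5%. Ccr7 rose from 3.75 ± 1.59 CPM (SD, n = 4) to 16.3 ± 5.60 (n = 3), a log2 fold change of 2.15 (SE 0.40, 95% interval 1.22 to 3.08, adjusted p = 0.0270). Cxcr4 rose from 25.02 ± 3.52 to 56.4 ± 11.3 CPM, a log2 fold change of 1.20 (SE 0.18, interval 0.78 to 1.61, adjusted p = 0.0175). All 3 RAS libraries were above all 4 Sham libraries for both genes, as the groups of 26.5% of all genes did not overlap. The Ccr7 call was lost without KRM Sham 1 (adjusted p = 0.0924), 2 (0.0928) or 4 (0.0543), KRM RAS 2 (0.0986) or KRM RAS 3 (0.0598), in 1 fit over all groups (0.109) and with the block (0.0767). The Cxcr4 call was lost without KRM Sham 1 (0.0661), 2 (0.0757) or 4 (0.0543), KRM RAS 2 (0.0536) or KRM RAS 3 (0.0610), and with the block (0.0948).

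KRM RAS 1 weighed on the other members. Ccrl2 was at 143 ± 23.4 CPM in KRM Sham and 384 ± 209.9 in KRM RAS (log2 fold change 1.45, SE 0.39, adjusted p = 0.0558), and Cx3cr1 at 1078 ± 39.3 and 648 ± 286 CPM (-0.71, interval -1.34 to -0.07, adjusted p = 0.119). Without KRM RAS 1, 4 members were called where 50.2% of all genes were. Ccrl2 was then 1.79 (adjusted p = 0.000159), Cx3cr1 -1.18 (0.000439), Ccr7 1.96 (0.00683) and Cxcr4 1.21 (0.00136). Ccr1, at 0.52 (interval 0.11 to 0.93, adjusted p = 0.0882) with all libraries, was 0.38 (0.124) without it, and Ccr2 was -0.05 (0.857).

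**Figure D5:**
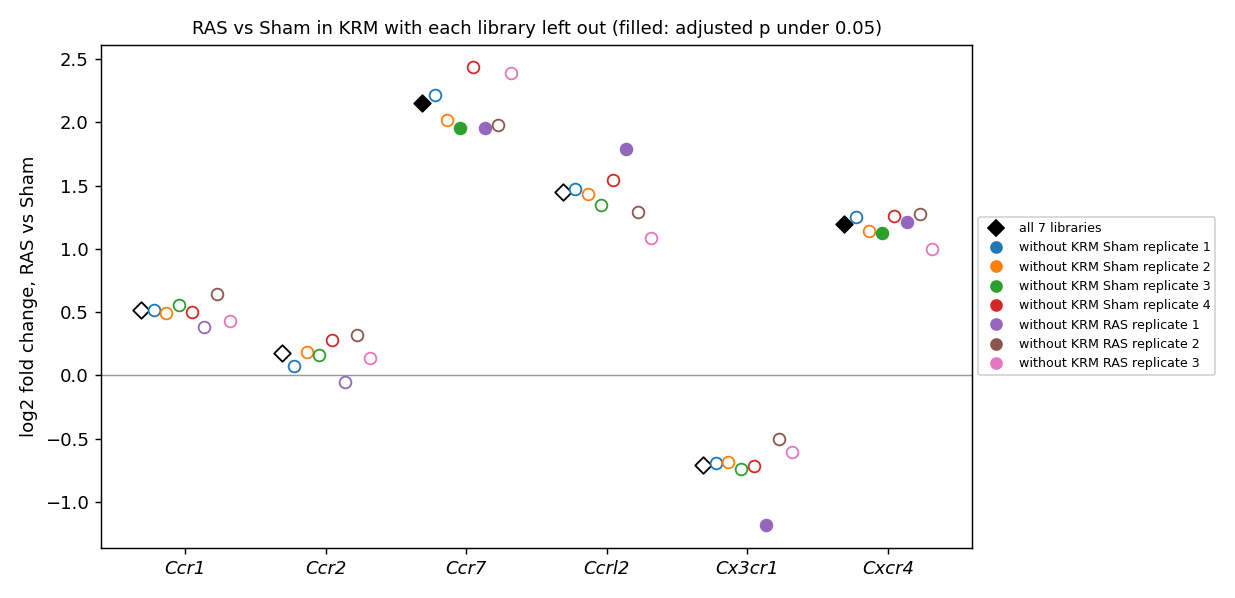
Log2 fold change of RAS against Sham in KRM for each receptor with all libraries and with each of the 7 libraries left out in turn, filled where the adjusted p was under 0.05. Without KRM RAS 1, Ccrl2 moves to 1.79 and Cx3cr1 to -1.18, and Ccr7, Cxcr4, Ccrl2 and Cx3cr1 pass together only there.

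Other markers moved with RAS in KRM as well. T and NK cell markers summed to 3.82 to 5.20 CPM in KRM Sham and 54.0 to 427 in KRM RAS. Of these 10 of 10 were called higher, where 9.7% of all genes were called, 7.77% as higher. With so few counts in KRM Sham most passed the filter through the RAS libraries, so nothing is read from this count. Mature dendritic cell markers summed to 833 to 861 CPM in Sham and 833 to 3176 in RAS, with 6 of 9 higher and the RAS library at 833 being KRM RAS 1. Tubular markers summed to 254 to 1820 CPM in Sham and 1141 to 5201 in RAS, with 2 of 9 higher, and fibroblast and pericyte markers to 19.8 to 40.8 and 44.8 to 585, with 4 of 6 higher. Classical monocyte markers summed to 126 to 144 CPM in Sham and 233 to 248 in RAS, with 2 of 10 higher and 1 lower, and non-classical monocyte markers to 373 to 447 and 545 to 959, with 1 of 10 higher and 1 lower. Neutrophil markers summed to 95.04 to 119 CPM in Sham and 140 to 223 in RAS, with 2 of 7 higher, and dendritic cell markers to 211 to 246 and 242 to 341, with 3 of 10 higher and 1 lower. Of the endothelial markers 3 of 6 were higher, and of the B cell markers 0 of 4 were called. Kidney macrophage markers summed to 18305 to 25442 CPM in Sham and 9770 to 15691 in RAS, with 2 of 10 lower, and 10 of 10 lower without KRM RAS 1, where Cx3cr1 also was called lower. Dissociation stress genes summed to 34338 to 50220 CPM in Sham and 26287 to 29285 in RAS, with 1 of 12 higher and 3 lower. The part of any of these in the receptor values was not tested.

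In CD11chi, edgeR called 0 of the 6 members and 0% of 12739 genes between RAS and Sham, with 1 member at an unadjusted p under 0.05. That member was Ccr7, at 30.8 ± 20.96 CPM (n = 3) in Sham and 267 ± 174 (n = 4) in RAS, with a log2 fold change of 3.08 (interval 1.17 to 4.99, unadjusted p = 0.00581, adjusted p = 0.508). DESeq2 called it at 3.09 (adjusted p = 0.00409), 1 member among 189 genes. The edgeR value was 3.43 (adjusted p = 0.075) without CD11chi RAS 1 and 2.98 without CD11chi Sham 3. T and NK cell markers, 0 of 10 of them called, summed to 9.16 to 43.5 CPM in CD11chi Sham and 125 to 314 in CD11chi RAS, and their part, like that of the dendritic cell markers, was not tested. For Ccr7 the groups overlapped, where those of 7.03% of all genes did not, since CD11chi RAS 1 at 42.6 CPM was under CD11chi Sham 1 at 54.0. The other members gave 1.41 for Ccr1 (interval -0.12 to 2.94), 0.94 for Ccrl2 (-0.31 to 2.20), 0.27 for Cxcr4 (-0.28 to 0.82) and -1.12 for Cx3cr1 (-2.93 to 0.70), which was -2.34 (adjusted p = 0.115) without CD11chi RAS 1.

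In CD11clo, edgeR likewise called 0 of 6 members and 0% of 12301 genes, DESeq2 0 members and 107 genes, and 2 members had an unadjusted p under 0.05. Cxcr4 was at 49.0 ± 10.5 CPM (n = 3) in Sham and 89.8 ± 18.6 (n = 4) in RAS, 0.88 on the log2 scale (interval 0.35 to 1.41, unadjusted p = 0.00486, adjusted p = 0.553), and its groups did not overlap, as for 8.58% of all genes. Cx3cr1 was at 280.4 ± 38.1 and 540.2 ± 251 CPM (0.95, interval 0.14 to 1.77, unadjusted p = 0.0266, adjusted p = 0.553). It was 0.60 (adjusted p = 0.774) without CD11clo RAS 3, the library with 896 CPM. CD11clo RAS 3 also held 16669 CPM of kidney macrophage markers, against 6062 to 7596 in the others of its group, and 2561 CPM of classical monocyte markers against 6482 to 9502, and their part was not tested. Ccr1 gave 1.01 (interval -0.11 to 2.13) and Ccrl2 0.89 (-0.20 to 1.98), while Ccr7, with few counts in Sham, is given no fold. The median over the 6 members was 0.61 in CD11chi (all genes -0.09), 0.92 in CD11clo (all genes -0.02) and 0.86 in KRM (all genes 0.02).

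Whether the effect of RAS differed between populations was tested on the difference of the log2 fold changes. With edgeR 0 members were called in each of the 3 differences, with 1 member at an unadjusted p under 0.05 in each, while 0%, 0.245% (0.223% higher and 0.0216% lower) and 0% of all genes were called. DESeq2 called 1 member for KRM minus CD11chi (Cxcr4), 1 for KRM minus CD11clo (Cx3cr1) and 0 for CD11chi minus CD11clo. In the same order it called 1221 of 14137, 1419 of 13877 and 15 of 13540 genes. The change in Cx3cr1 was lower in KRM than in CD11clo by -1.71 (SE 0.48, unadjusted p = 0.00348, adjusted p = 0.0888), and by -2.18 (adjusted p = 0.00925, with 16.1% of all genes called) without KRM RAS 1. The change in Cxcr4 was 0.87 (SE 0.28, unadjusted p = 0.00906, adjusted p = 0.120) for KRM minus CD11chi. For Cx3cr1, CD11chi minus CD11clo gave -2.05 (interval -4.07 to -0.02, adjusted p = 0.735). For Ccr7, called in KRM and not in the others, the differences were -0.98 (interval -2.99 to 1.03) for KRM minus CD11chi and -0.26 (-2.88 to 2.35) for KRM minus CD11clo, the latter over the few counts of CD11clo Sham, so that the change in KRM was not shown to differ.

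Of 15 listed ligands of the members, 13 could be tested, and in KRM 6 were called higher and 1 lower with RAS, where 9.7% of all genes were called. Their median was 2.09 on the log2 scale (all genes 0.02). Ccl8, one of the listed ligands, rose from 3.01 ± 1.01 to 136 ± 28.0 CPM (5.52, SE 0.28, adjusted p = 0.000882), with each RAS library at or above 104 CPM. Cx3cl1, fractalkine, rose from 3.03 ± 1.99 to 91.1 ± 75.8 CPM (4.86, SE 1.07, adjusted p = 0.0358), with 3.96 CPM in the lowest RAS library, KRM RAS 1. Endothelial markers summed to 17.1 CPM in KRM RAS 1 and to 219 and 187 in KRM RAS 2 and 3, and tubular markers to 1141, 5201 and 3994 in the same order, and their part in the ligand values was not tested. Ccl3, a ligand of Ccr1, fell from 1219 ± 225 to 594 ± 51.6 CPM (-1.01, SE 0.19, adjusted p = 0.0269). Without KRM RAS 1, 9 ligands were higher and 2 lower (50.2% of all genes called). Without any 1 of KRM Sham 1, 2 or 4 or KRM RAS 2 or 3, only 28 to 43 of all genes were called, and which ligands were among them is not given. This limit also holds for the other receptors and signalling genes below. In CD11chi and in CD11clo 0 ligands were called for RAS against Sham, among 0% of all genes.

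Between populations in Sham, KRM had 4 ligands higher and 4 lower than CD11clo of 13 tested, where 41.8% of all genes were called. Ccl4 (2.79) and Ccl12 (2.36) were the largest increases and Ccl2 (-3.34) and Ccl7 (-3.25), both ligands of Ccr2, the largest decreases. Ccl2 stood at 35.4 ± 11.03 CPM in KRM Sham. Against CD11chi in Sham 1 was higher, Ccl12 (1.13), and 2 were lower, Ccl7 (-2.49) and Ccl2 (-2.35), among 5.12% of all genes, and without CD11chi Sham 3 the counts were 2 and 4 (13.6% of all genes called). With the replicate block 89 of all genes were called, 2 of them higher, and which ligands were among them is not given. The same limit holds for this comparison in the lists below. CD11chi had 1 ligand higher than CD11clo in both conditions, Ccl5, at 3.13 (adjusted p = 0.0492) in Sham and 3.68 (adjusted p = 0.0036) in RAS. Over all genes 1.52% were called in Sham and 8.27% in RAS. Without CD11chi RAS 1, 2 ligands were higher in RAS (17.3% of all genes called). The Sham call was lost, with 0% of all genes called, without any 1 of CD11chi Sham 1 or 2 or CD11clo Sham 1, 2 or 3, while 1 ligand was higher and 1 lower without CD11chi Sham 3 (5.7% of all genes called). In RAS, KRM had Ccl3 (1.35) higher and Ccl6 (-2.71) and Ccl9 (-2.49) lower than CD11chi, where 9.23% of all genes were called. Against CD11clo it had Ccl5 (2.57) higher and Ccl6 (-3.40) and Ccl9 (-2.25) lower, where 9.17% of all genes were called. These counts were, without KRM RAS 1, 3 higher and 3 lower against CD11chi (19.6% of all genes called), and 1 and 2 against CD11clo (23%). Without CD11chi RAS 1 they were 2 and 2 against CD11chi (17.6%). Without KRM RAS 2 or 3, 0 of all genes were called against CD11clo, so those ligand calls were lost. Against CD11chi 14 or 24 of all genes were then called, 0 of them higher.

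Of 19 other chemokine receptors, 7 to 12 passed the filter in a comparison of groups. In Sham, KRM against CD11clo gave 5 higher and 2 lower of 8 (41.8% of all genes called), among them Cxcr3 (4.00) and Ccr3, which was lower, at 0.411 to 0.946 CPM in KRM Sham and 138 to 317 in CD11clo Sham. Since Ccr3 passed the filter through CD11clo alone, it is given no fold and nothing is read from its call. KRM against CD11chi gave 0 higher and 1 lower of 7, Xcr1 (-1.97, adjusted p = 0.0383), a receptor of cross-presenting dendritic cells, where 5.12% of all genes were called, and 0 higher and 3 lower of 10 without CD11chi Sham 3 (13.6%). CD11chi had 2 higher than CD11clo of 8 in Sham, Xcr1 (3.98) and Cxcr3 (3.59), where 1.52% of all genes were called. Both were lost, with 0% of all genes called, without any 1 of CD11chi Sham 1 or 2 or CD11clo Sham 1, 2 or 3, and 3 higher and 1 lower of 9 were called without CD11chi Sham 3. In RAS it had 3 higher, Xcr1 (3.19), Cxcr6 (2.48) and Ccr8 (2.28 to 5.44 CPM in CD11chi against 0.211 to 0.894 in CD11clo), and 1 lower of 10, Cxcr2 (-4.89), a receptor of neutrophils, where 8.27% of all genes were called, against 2 higher and 2 lower without CD11chi RAS 1 (17.3%). There Ccr8 passed the filter through CD11chi alone, so nothing is read from its call. KRM in RAS had Cxcr2 (0 to 0.692 CPM against 18.7 to 196) and Ccr3 (0.193 to 3.07 CPM against 19.3 to 361) lower than CD11clo of 10 tested (9.17% of all genes called). These 2 passed the filter through CD11clo alone, so they are given no fold and nothing is read from their calls. Without KRM RAS 2 or 3, 0 of all genes were called in that comparison. For KRM against CD11chi in RAS 0 of 12 were called (9.23% of all genes), and 1 was higher and 3 lower without KRM RAS 1 (19.6%). Between RAS and Sham in KRM, 2 of 8 were called higher, where 9.7% of all genes were called, 7.77% as higher. These were Cxcr6, a receptor of T and NK cells, at 0.308 to 1.62 CPM in KRM Sham and 7.24 to 72.4 in KRM RAS, and Ccr8, at 0 to 0.308 and 1.10 to 3.16 CPM. Both passed the filter through the RAS libraries alone, so no fold is given and nothing is read from the count. The counts were 3 higher and 4 lower of 8 without KRM RAS 1, where 50.2% of all genes were called. Ccr8 was named after its values were seen. RAS against Sham called 0 of 12 in CD11chi and 0 of 10 in CD11clo.

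Of 28 genes that carry or end the signal of chemokine receptors, KRM had 6 higher and 12 lower than CD11clo in Sham of 27 tested, where 19.5% of all genes were higher and 22.3% lower, led by Rgs1 (2.06) and Arrb2 (1.96) and by Rgs18 (-5.66) and Grk5 (-3.57). Rgs proteins shorten G protein signalling, and Arrb2 and Grk5 act in receptor desensitization. Against CD11chi in Sham 1 was higher, Rgs10 (0.95), and 1 lower, Rgs18 (-4.53), of 27 tested, where 5.12% of all genes were called. Of 27 tested, 4 were higher and 2 lower without CD11chi Sham 3, where 13.6% of all genes were called. In RAS, 4 of 28 were lower in KRM than in CD11chi, with Rgs18 at -3.39 and Rac2 at -1.25, where 9.23% of all genes were called, 5.07% as lower. Against CD11clo 6 were lower, with Rgs18 at -3.51 and Grk5 at -2.81, where 9.17% of all genes were called, 5.89% as lower. These became, without KRM RAS 1, 1 higher and 10 lower against CD11chi (19.6% of all genes called) and 1 higher and 15 lower against CD11clo (23%). Without KRM RAS 2 or 3, 0 of all genes were called against CD11clo, so those calls were lost, and 14 or 24 of all genes against CD11chi. Between CD11chi and CD11clo 0 were called in Sham and in RAS with all libraries, 2 higher in Sham without CD11chi Sham 3 (5.7% of all genes called) and 3 lower in RAS without CD11chi RAS 1 (17.3%). Between RAS and Sham in KRM, Rgs16 and Rgs18 were called higher, 2 of 28 where 7.77% of all genes were higher, both named after their values were seen. Rgs16 was at 0 in every KRM Sham library and at 4.25 to 20.2 CPM in KRM RAS, so that it passed the filter through RAS alone. The counts without KRM RAS 1 were 2 higher and 20 lower, where 50.2% of all genes were called. In CD11chi and CD11clo RAS called 0. With all libraries no gene of the 3 lists was called in a difference of responses. Without KRM RAS 1, KRM minus CD11chi gave 3 ligands, 1 other receptor and 1 signalling gene higher, where 7.4% of all genes were called. KRM minus CD11clo gave 1 ligand higher, 1 other receptor higher and 2 lower, and 10 signalling genes lower of 28, where 16.1% of all genes were called.

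The genes most like each member over the 21 libraries were found among 8892 genes by Pearson r of log2 CPM, given as a description over libraries that share groups. For Ccr2 these were Capza2 (0.95), Soat1 (0.95) and Stk4 (0.94), and for Ccr1 Gpr35 (0.96), Samsn1 (0.96) and A530064D06Rik (0.95). For Cx3cr1 they were Pydc4 (0.97), Sesn1 (0.97) and Ifnar2 (0.96), and for Ccr7 Smc2 (0.96), Anpep (0.95) and H2-DMb2 (0.94). For Ccrl2 they were Gla (0.95), Tubb6 (0.95) and Vps37b (0.94), and for Cxcr4 Rhoq (0.83), Cdc42ep2 (0.81) and Nampt (0.81). With group means removed, r stayed at 0.71 or more for the genes named beside the first 5 receptors, while for Cxcr4 it was -0.12, 0.40 and 0.14.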

How the data were processed

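Macrophage RNA of 21 libraries, in 6 groups taken from the sample labels, was amplified with an ultra-low-input kit and tagged with Nextera XT. The authors aligned paired-end reads to mm10 with OmicSoft OSA against Ensembl genes and deposited estimated counts per gene, which need not be whole. The authors also deposited a log2 table of quantile-normalized TPM. In it, the column named for KRM RAS 1 does not correspond to that library's counts (r = 0.105), and every value from it carries this limit. The authors' own tests used the Wald test of DESeq2 and were not used.

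Estimated counts were rounded, and the 3730 of 37620 lines that share a symbol were summed to 34236 names. No member had more than 1 line. Levels are CPM with TMM factors over all libraries, and log2 CPM used a prior count of 2. Each comparison was fitted on the libraries of its groups with edgeR 4.0.16 in R 4.3.3 (filterByExpr at 10 counts and a total of 15, TMM, quasi-likelihood F test, two-sided), with Benjamini-Hochberg adjustment over all genes tested and a threshold of 0.05. Standard errors and 95% intervals come from that F statistic. Differences of responses were fitted as interactions. The method was tested on simulated data before use. The labels do not say that replicates are separate mice, so p-values measure the spread between these libraries. No pair of replicates agreed within sampling noise. Intervals and levels from few counts carry counting error besides, and read duplicates were not identified.

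The 6 members and the gene lists were chosen with earlier results of these data known. The lists were 19 other chemokine receptors, 15 ligands, 28 signalling genes and markers of kidney macrophages, classical and non-classical monocytes, dendritic cells, mature dendritic cells, T and NK cells, B cells, neutrophils, tubular epithelium, endothelium, fibroblasts and pericytes, and dissociation stress. All list genes were found, 6 under older symbols. Values of 1 list gene are not reported here. Named from the 3 pathway lists were at most 2 genes per direction with the largest change among those called with an average log2 CPM of at least 3, and as most like a member 3 genes at that minimum.

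Results were recomputed with DESeq2 1.42.0, with limma 3.58.1 on the deposited log2 values, with the replicate number as a block, in 1 fit of all 6 groups, without the filter, with median-of-ratios size factors, with total library size, and with each library left out. Limma without the KRM RAS 1 column was chosen after seeing the data. Same-numbered libraries were checked for pairing by the correlation of their deviations from the group means. In Sham all 3 pairs were over 0.1 in each comparison of populations (0.207 to 0.584 for KRM and CD11chi, 0.202 to 0.541 for KRM and CD11clo, 0.345 to 0.644 for CD11chi and CD11clo), so these may be paired. The main fits leave this pairing out, so a Sham call between populations is to be read beside its value with the block. The pairing comes from the data and the shared numbers, not from a statement in the labels.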

Additional observations from a re-analysis of the deposited data

Results flagged for a closer look

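In each of the 3 groups of 4 libraries the 6 members were searched for a library far from the rest, which gave 18 searches and 2 finds, where chance gives about 1 in 20. Ccr2 in CD11chi RAS 2 was at 428 CPM, while the other 3 CD11chi RAS libraries lay at 965 to 1028 CPM. Cx3cr1 in CD11chi RAS 1 was at 579.5 CPM, while the other 3 lay at 83.4 to 96.4 CPM. CD11chi RAS 1 also held the least Ccr7 of its group (42.6 CPM), the fewest dendritic cell markers (1230.0 CPM) and the most kidney macrophage markers (9118 CPM). The part of these in its Cx3cr1 level was not tested.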

How the results depend on the processing

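The count of members called moved by more than 1.5 times in several settings. For KRM against CD11chi in Sham (2 called) it was 0 with the replicate block, 5 with DESeq2 and 0 with limma. Over all genes these fits called 89, 1811 and 388, against 635 in the main fit. For CD11chi against CD11clo in Sham (0) it was 1 in 1 fit over all groups, 2 with the block and 1 with DESeq2, each with Ccr7, from whose few counts in CD11clo Sham nothing is read. Over all genes these fits called 818, 595 and 1213, against 184. In RAS, KRM against CD11chi (2) gave 0 with the block, where 101 of all genes were called, against 1221. KRM against CD11clo in RAS (2) gave 1 with total library size, 1 with no filter, 1 with the block, 4 with DESeq2 and 1 with limma. In that order 1503, 1086, 1117, 3220 and 732 of all genes were called, against 1208. CD11chi against CD11clo in RAS (2) gave 1 with total library size, where 837 of all genes were called, against 1018. For RAS against Sham, CD11chi (0) gave 1 with DESeq2, where 189 of all genes were called, against 0. For RAS against Sham, KRM (2) gave 1 in 1 fit over all groups, 0 with the block, 5 with DESeq2 and 4 with limma without the KRM RAS 1 column. In that order 1134, 42, 3166 and 7346 of all genes were called, against 1247. For the differences of responses (0), KRM minus CD11chi gave 1 with DESeq2, where 1221 of all genes were called, against 0. KRM minus CD11clo gave 1 with DESeq2, 1 with limma and 1 with limma without that column. In that order 1419, 1458 and 3919 of all genes were called, against 34. The main fits leave the block out, also between populations in Sham. Where groups only share replicate numbers (comparisons in RAS, and RAS against Sham), the block is a check and no pairing was taken from the data. The cause of these moves was not tested.

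Leaving out each library in turn, the counts ran from 0 to 5 for KRM against CD11chi in Sham, 4 to 6 for KRM against CD11clo in Sham, 0 to 1 for CD11chi against CD11clo in Sham, 0 to 3 for KRM against CD11chi in RAS, 0 to 2 for KRM against CD11clo in RAS, 1 to 3 for CD11chi against CD11clo in RAS, 0 to 4 for RAS against Sham in KRM and 0 to 1 for KRM minus CD11clo. They stayed at 0 in the other comparisons. Over all genes the same fits called 0 to 2357 for KRM minus CD11clo, 0 to 1097 for KRM minus CD11chi and 0 to 39 for RAS against Sham in CD11chi. The ranges over all genes for the other comparisons named here are given below.

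The sign of a log2 fold change turned in these cases, and in none was the turned value called. For KRM against CD11chi, Ccr2 was 0.20 in Sham with limma, and in RAS Ccr2 was 0.0361 and Ccrl2 0.47 with limma without the KRM RAS 1 column. For KRM against CD11clo in RAS, Cx3cr1 was -0.13 and Cxcr4 0.16 with limma. For RAS against Sham in KRM, Ccr1 was -0.15 and Ccr2 -0.61 with limma, and Ccr2 -0.10 without that column. For KRM minus CD11chi, Ccr2 was 0.20 with total library size, 0.0349 with no filter and 0.11 with the block, and Cx3cr1 -0.14 with limma. For KRM minus CD11clo, Ccr2 was -0.0237 in 1 fit over all groups, -0.73 with limma and -0.22 without that column, and Ccr7 was 0.0578 with total library size, 0.13 with the block and 0.26 with limma. For CD11chi minus CD11clo, Ccr2 was -0.0590 with limma, and Ccrl2 -0.0211 with the block and -0.0169 with limma. With a library left out, the log2 fold change crossed 0 for Ccr2 in KRM against CD11chi in Sham (-0.69 to 0.15), for Cx3cr1 in KRM against CD11clo in RAS (-0.19 to 0.64), and for Ccr2 under RAS in CD11chi (-0.28 to 0.54), CD11clo (-0.19 to 0.45) and KRM (-0.05002 to 0.32). In the differences of responses it crossed 0 for Ccr2 (-0.43 to 0.40 for KRM minus CD11chi, -0.36 to 0.36 for KRM minus CD11clo, -0.40 to 0.53 for CD11chi minus CD11clo), Ccrl2 (-0.23 to 0.82 for KRM minus CD11chi, -0.25 to 0.78 for CD11chi minus CD11clo), Cx3cr1 (-0.0767 to 1.58 for KRM minus CD11chi) and Ccr7 (-3.19 to 0.29 for KRM minus CD11clo, -2.12 to 1.54 for CD11chi minus CD11clo). Of all values of single members under an alternative, 1011 kept direction and side of the threshold, 63 fell short of it, 32 came past it and 58 turned.

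Over all genes the counts called moved more. For RAS against Sham in KRM 1247 were called, 42 to 7346 under other settings and 28 to 7070 with a library left out. For KRM against CD11chi in Sham these were 635, 89 to 1811 and 155 to 1717, and against CD11clo 5178, 3447 to 5624 and 4007 to 5940. For CD11chi against CD11clo in Sham they were 184, 95 to 1213 and 0 to 704. In RAS they were 1221, 101 to 2753 and 14 to 2788 for KRM against CD11chi, 1208, 732 to 3502 and 0 to 3239 for KRM against CD11clo, and 1018, 837 to 2054 and 256 to 2169 for CD11chi against CD11clo. For RAS against Sham in KRM the share of higher genes among those called was 80.0%, against 64.6% with DESeq2, 92.9% with the block, 42.5% with limma and 38.8% with limma without the KRM RAS 1 column, and 56.0% without that library. For KRM minus CD11clo it was 91.2%, against 63.6% with DESeq2 and 39.8% with limma. For RAS against Sham in KRM the median of all genes was 0.02, -0.15 with limma and -0.18 with limma without that column. Total library size moved the median of all genes from 0.06 to 0.27 for KRM against CD11clo in RAS, with the share of higher calls going from 35.8% to 65.9%, and from 0.03 to 0.26 for KRM against CD11chi in RAS, with a share of 45.1% against 55.0%. Keeping lines with a shared symbol apart gives no other value, since no member has more than 1 line. Depth limits Ccr7 in CD11clo Sham, where 3 libraries hold 2, 0 and 24 counts.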
